A study of Brassica rapa subsp. pekinensis with 4 samples.

Results

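The RAV and TEMPRANILLO genes of Chinese cabbage encode a small group of transcriptional repressors that carry an AP2 and a B3 DNA-binding domain in the same protein. They were taken here as all *B. rapa* genes whose Arabidopsis match in the count tables was *TEM1* (AT1G25560), *TEM2*, also called *RAV2* (AT1G68840), *RAV1* (AT1G13260) or *EDF3* (AT3G25730). This rule found 6 of the 36698 genes listed, of which 2 matched *TEM1*, 1 matched *TEM2*, 2 matched *RAV1* and 1 matched *EDF3*. The rule itself uses no expression value, although it was set with earlier results of these data known. The names *BrTEM1*, *BrTEM2*, *BrRAV1* and *BrEDF3* stand for these matches, and each copy is identified by its Bra number.

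The study asked which flowering time genes respond to vernalization, the long cold period that makes a plant competent to flower. Shoot poly(A) RNA of the early-bolting inbred line “4004” was sequenced in 2 libraries after 35 days of vernalization (35D Ver) and in 2 libraries without vernalization (0D Ver). All plants grew at 23 °C with 16 h of light per day, and the cold was given at 5 °C with 12 h of light. The 35D Ver plants were 7 weeks old and the 0D Ver plants 2 weeks old according to the sample labels, while the methods start the cold a week earlier than these ages imply. Both conditions used the same inbred line, and the methods state that shoots of several plants went into each sample, taken at a matched time of day. Cold, plant age and day length changed together between the conditions and cannot be told apart. The methods call the samples of the study independent biological replicates. Every p-value below rests on at most 2 libraries per condition, and on fewer in the affected condition where a library was left out. In whole shoots, fewer cells that express a gene and less RNA per cell cannot be told apart either.

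In Arabidopsis, TEM1 and TEM2 hold back flowering by binding the *FT* gene, which encodes the mobile flowering signal, and by repressing *GA3OX1* and *GA3OX2*, which encode enzymes for the last step of gibberellin synthesis. Their transcripts are abundant in Arabidopsis seedlings and decline as the plant approaches flowering. RAV1 restrains growth in Arabidopsis and represses genes of the abscisic acid response, and *RAV1* transcripts are known to respond to cold there. EDF3 belongs to the same group, whose members were also described as ethylene response DNA binding factors. These roles come from Arabidopsis and were not measured in the present libraries.

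The summed counts were 23428420 and 22709649 in the 35D Ver libraries, against 21315738 and 17221386 in the 0D Ver libraries. Values below are normalized counts, meaning deposited read counts divided by a size factor per library (trimmed mean of M-values). Changes are log2 fold changes of 35D Ver over 0D Ver on the log2(normalized count + 1) scale, tested with limma and adjusted by the Benjamini-Hochberg method over 29691 tested genes. A gene was called changed at an adjusted p below 0.05 and a DEG when, in addition, its log2 fold change was 1 or more in either direction and its mean reached 500 in the higher condition. All 6 genes passed the filter on low counts. Gene lengths were not used, so levels are compared between conditions and not between genes.

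*BrTEM1* was also measured by qPCR, with a primer pair listed for the copy Bra011002. The pair is shown because it is the only designed sequence tied to a single member. Each line runs 5′ to 3′ in lower case.
*BrTEM1* forward primer: tgtctaagaagacaccatct
*BrTEM1* reverse primer: tttcttccgttaccgtcg
The forward primer has 20 bases and the reverse primer 18 bases. Whether the pair also amplifies the second copy, Bra024735, was not tested here.

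Both copies of *BrTEM1* fell under 35D Ver, 1 of the 2 copies of *BrRAV1* rose, and the other *BrRAV1* copy, *BrTEM2* and *BrEDF3* did not pass the test. Bra011002 was lower by a log2 fold change of 1.05 and was the only DEG of the group. Of all tested genes, 40.6% were called in either direction (20.5% fell and 20.1% rose), so 3 called genes of 6 is not far from the background. DEGs made up 3.1% of the tested genes, 1.75% being lower and 1.34% higher under 35D Ver. The median log2 fold change of all tested genes was -0.01.

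**Figure D1:**
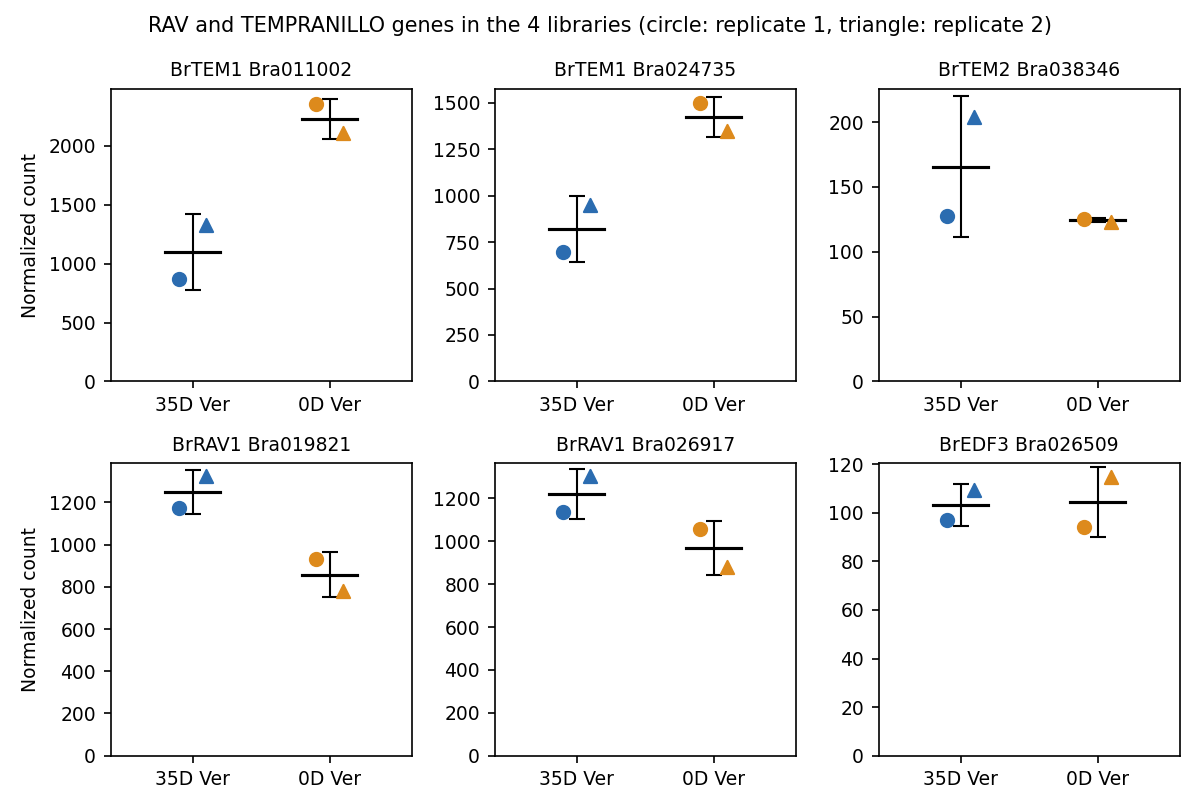
Normalized counts (vertical axes, each starting at 0) of the 6 RAV and TEMPRANILLO genes in the 2 libraries of 35D Ver and the 2 libraries of 0D Ver, with circles for replicate 1, triangles for replicate 2, a long bar for the mean and short bars for 1 SD. Both *BrTEM1* copies lie lower under 35D Ver, both *BrRAV1* copies and *BrTEM2* lie higher, and *BrEDF3* overlaps.

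*BrTEM1* (Bra011002) reached 871 and 1328 normalized counts under 35D Ver, against 2352 and 2111 under 0D Ver. The 35D Ver libraries were both lower than either 0D Ver library, and the gap between the conditions exceeded the gap between replicates. Means were 1100 ± 323 in 35D Ver and 2232 ± 170 in 0D Ver (± SD, n = 2 per condition), a ratio of 0.493. The log2 fold change was -1.05 (SE 0.187, 95% confidence interval -1.49 to -0.61, limma adjusted p = 0.003719). Of the tested genes, 2191 (7.38%) had a lower log2 fold change. The DEG call rested on single libraries, since the log2 fold change was -0.72 without 35D Ver replicate 1 and -0.98 without 0D Ver replicate 1, both short of the fold required, although the gene stayed called each time.

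*BrTEM1* (Bra024735), the second copy, reached 696 and 947 normalized counts under 35D Ver, against 1498 and 1347 under 0D Ver. These groups did not overlap either. Means were 822 ± 178 in 35D Ver and 1423 ± 107 in 0D Ver (± SD, n = 2 per condition), a ratio of 0.577. The log2 fold change was -0.81 (SE 0.152, 95% confidence interval -1.15 to -0.46, limma adjusted p = 0.003823), so this copy fell without reaching the fold required of a DEG. Without 35D Ver replicate 2 it was -1.02, and the copy would then have been a DEG. Among 5001 Arabidopsis loci with exactly 2 tested *B. rapa* genes, both copies fell at 698 (14.0%).

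*BrTEM2* (Bra038346) did not follow *BrTEM1*. It reached 127 and 204 normalized counts under 35D Ver, against 126 and 123 under 0D Ver. Replicate 1 of 35D Ver lay within counting error of both 0D Ver libraries, with an exact 95% Poisson interval of 107 to 150 against 105 to 149 and 100.4 to 149.8. Replicate 2 of 35D Ver, with an interval of 178 to 233, lay above all 3 of them. Means were 166 ± 54.4 in 35D Ver and 124 ± 1.65 in 0D Ver (± SD, n = 2 per condition), and the log2 fold change was 0.37 (SE 0.218, 95% confidence interval -0.13 to 0.87, limma adjusted p = 0.205). The value hung on 1 library, being 0.04 without 35D Ver replicate 2 and 0.74 without 35D Ver replicate 1, where the call was made (limma adjusted p = 0.0111). These Poisson intervals cover counting error only.

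**Figure D2:**
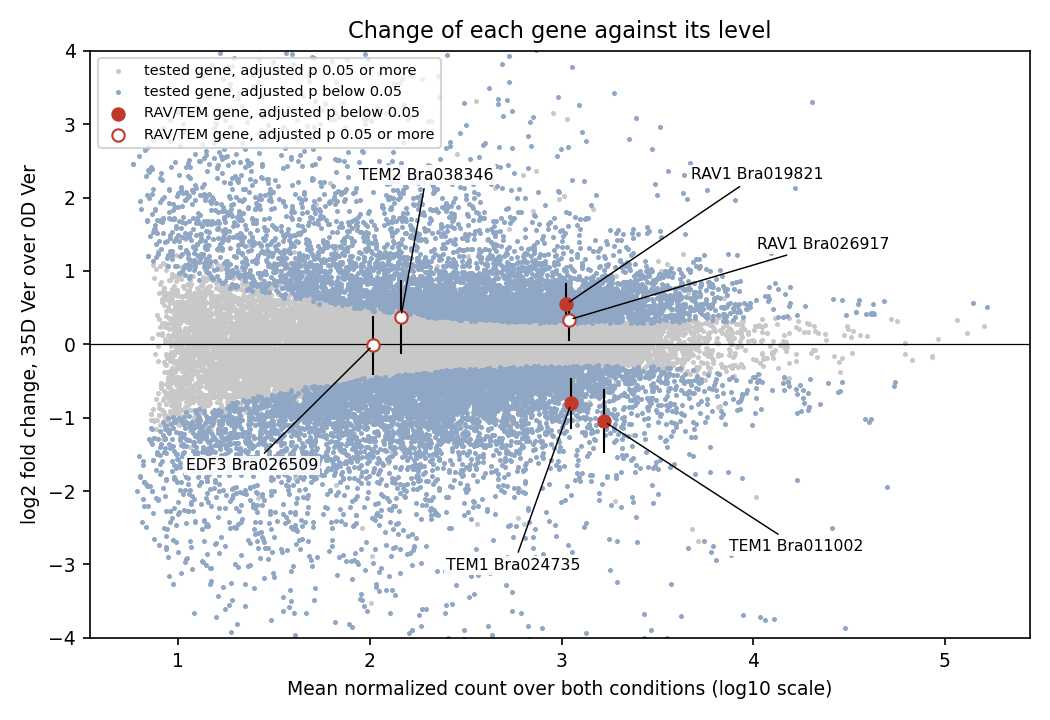
Log2 fold change of 35D Ver over 0D Ver (vertical axis) against the log10 of the mean normalized count (horizontal axis) for the 29691 tested genes, with the 6 RAV and TEMPRANILLO genes as large circles, filled where the adjusted p was below 0.05, and bars for their 95% confidence intervals. The 2 *BrTEM1* copies lie among the genes that fell and *BrRAV1* Bra019821 among those that rose, while 145 tested genes lie outside the plotted range.

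*BrRAV1* (Bra019821) reached 1174 and 1325 normalized counts under 35D Ver, against 932 and 782 under 0D Ver. The 35D Ver libraries were both higher than either 0D Ver library. Means were 1249 ± 106 in 35D Ver and 857 ± 106 in 0D Ver (± SD, n = 2 per condition), a ratio of 1.46. The gene rose by a log2 fold change of 0.55 (SE 0.124, 95% confidence interval 0.26 to 0.83, limma adjusted p = 0.008808). Without 0D Ver replicate 2, its lowest library, the change was 0.42 and the call was lost (limma adjusted p = 0.0610).

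*BrRAV1* (Bra026917) reached 1137 and 1305 normalized counts under 35D Ver, against 1059 and 880 under 0D Ver. The groups did not overlap, but the lower 35D Ver library and the higher 0D Ver library lay close together. Means were 1221 ± 119 in 35D Ver and 969 ± 126 in 0D Ver (± SD, n = 2 per condition). The log2 fold change was 0.33 (SE 0.128, 95% confidence interval 0.04 to 0.63) with an unadjusted p of 0.0292 and a limma adjusted p of 0.0664, so the copy was not called. It was called without 35D Ver replicate 1 (0.46, limma adjusted p = 0.0387) and without 0D Ver replicate 1 (0.46, limma adjusted p = 0.0483).

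*BrEDF3* (Bra026509) reached 97.1 and 109 normalized counts under 35D Ver, against 94.2 and 115 under 0D Ver. It was the only member whose libraries overlapped between conditions. Means were 103 ± 8.70 in 35D Ver and 104 ± 14.5 in 0D Ver (± SD, n = 2 per condition), and the log2 fold change was -0.01 (SE 0.175, 95% confidence interval -0.41 to 0.39, limma adjusted p = 0.961). The interval does not tell a change of a size within it, in either direction, from no change. The 4 deposited counts were 106 and 120 under 35D Ver and 96 and 94 under 0D Ver.

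The conditions did not overlap in 5 of the 6 genes, with 35D Ver below in 2 and above in 3. This separation was common in these libraries, being found in 73.1% of the tested genes (37.1% below and 36% above). The 2 *BrTEM1* copies and *BrTEM2* summed to 1694 and 2480 normalized counts under 35D Ver, against 3976 and 3582 under 0D Ver. The 2 *BrRAV1* copies summed to 2311 and 2629 under 35D Ver, against 1991 and 1662 under 0D Ver. The summed counts of *BrRAV1* were 1.47 and 1.16 times those of *BrTEM1* in the 35D Ver libraries, against 0.517 and 0.481 times in the 0D Ver libraries. The ratio of *BrRAV1* to *BrTEM1* counts differed by 1.39 on the log2 scale between the conditions, without overlap. The exact two-sided permutation test gave p = 0.333, the smallest that 2 against 2 libraries allow. Both *BrRAV1* copies lay higher and both *BrTEM1* copies lower under 35D Ver, so the lack of overlap and this p were fixed beforehand. The ratio is therefore no separate evidence. Gene length is the same in every library, so the ratio can be compared between conditions, but its size does not say which transcript was more abundant.

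The fold changes of the 2 *BrTEM1* copies differed in size, and so the division of counts between them was compared within each library, where scaling plays no part. Bra011002 took 55.6% (exact Clopper-Pearson 95% interval 53.2 to 58.0) and 58.4% (56.4 to 60.3) of the *BrTEM1* counts under 35D Ver, against 61.1% (59.5 to 62.6) and 61.0% (59.2 to 62.8) under 0D Ver. The share averaged 57.0% ± 1.97 in 35D Ver, against 61.1% ± 0.0291 in 0D Ver (± SD, n = 2 per condition), a difference of -4.09 percentage points with an exact permutation p of 0.333. It was -2.69 without 35D Ver replicate 1 and -5.48 without 35D Ver replicate 2. The interval of 35D Ver replicate 2 overlapped those of both 0D Ver libraries. On the log2 scale the ratio of Bra011002 to Bra024735 changed by -0.24 (SE 0.0615), which did not pass the limma test over the 5001 loci with 2 tested copies (adjusted p = 0.0593). Without 35D Ver replicate 2 the change was -0.33 and passed (limma adjusted p = 0.0330).

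Of the *BrRAV1* copies, Bra019821 took 50.8% (48.8 to 52.8) and 50.4% (48.5 to 52.2) of their summed counts under 35D Ver, against 46.8% (44.6 to 49.0) and 47.1% (44.4 to 49.8) under 0D Ver. The share averaged 50.6% ± 0.305 in 35D Ver, against 46.9% ± 0.171 in 0D Ver (± SD, n = 2 per condition), a difference of 3.65 percentage points with an exact permutation p of 0.333. The ratio of Bra019821 to Bra026917 rose by 0.21 on the log2 scale (SE 0.0319, limma adjusted p = 0.0184). Such a change was called at 19.2% of the 5001 loci, and it lost its call whichever of the 4 libraries was left out (log2 change 0.20 to 0.22, limma adjusted p 0.0672 to 0.102). This copy-ratio test was chosen after the values had been seen. How the authors counted reads that fit both copies of a locus is not given in the sources used here, so the values of near-identical copies, and shares between them, are uncertain to that extent.

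**Figure D3:**
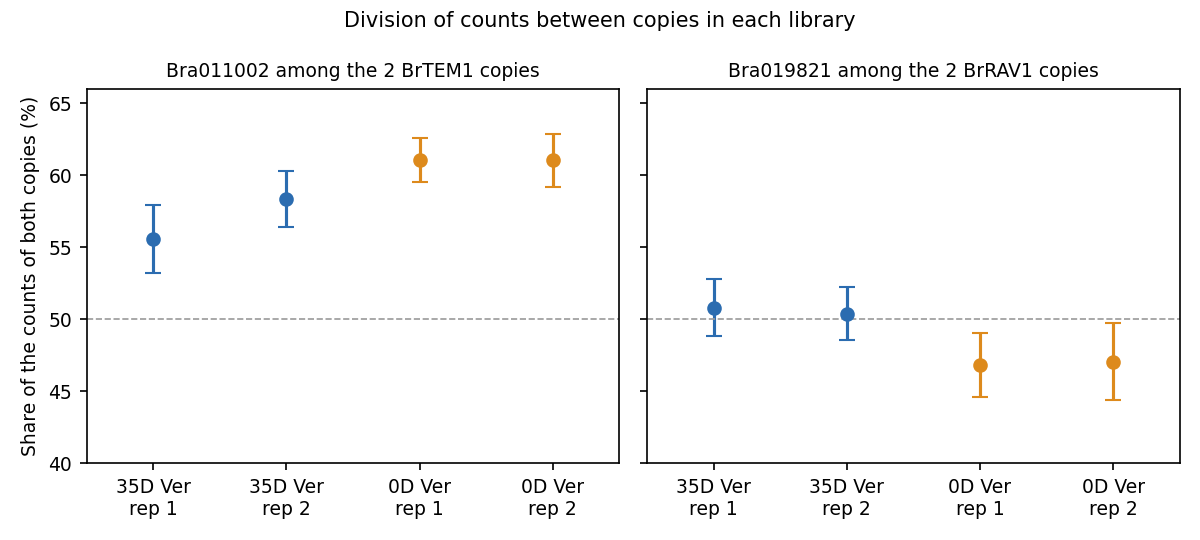
Share of the summed counts of a locus taken by 1 of its 2 copies (vertical axis in %, not starting at 0) in each library, with exact 95% Clopper-Pearson intervals that cover counting error only and a dashed line at equal shares. The share of Bra011002 in *BrTEM1* was lower in both 35D Ver libraries and the share of Bra019821 in *BrRAV1* was higher.

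The replicates of 35D Ver differed more in the *BrTEM1* and *BrTEM2* genes than in most genes of like level, taken as tested genes whose mean lay within 2-fold. Between these 2 libraries Bra011002 differed by 0.61 on the log2 scale, more than 98.8% of 4616 such genes. Bra024735 differed by 0.44, more than 95.9% of 6496 genes, and *BrTEM2* Bra038346 by 0.68, more than 97.2% of 8936 genes. The *BrRAV1* copies and *BrEDF3* differed by 0.17 to 0.20, more than 47.6% to 72.7% of like genes. Between the 0D Ver replicates the 6 genes differed by 0.03 to 0.28, more than 8.95% to 84.4% of like genes. All 6 genes were higher in replicate 2 than in replicate 1 of 35D Ver, as were 48.3% of the tested genes.

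Replicate 2 of 35D Ver was also the higher of the 2 in *SAG12*, a protease gene that marks old, senescing leaves. The 2 *SAG12* copies, which passed the filter on low counts only through the 35D Ver libraries, summed to 175 and 1880 normalized counts in the 35D Ver libraries, against 2.94 and 3.66 in the 0D Ver libraries. Leaf mesophyll markers (9 genes, of which the 3 copies of the Rubisco activase gene *RCA* rose) summed to 271274 and 216102 under 35D Ver, against 186201 and 178876 under 0D Ver. Root markers (4 genes, of which 1 passed the filter, only through the 0D Ver libraries) summed to 11.0 and 16.4 under 35D Ver, against 27.5 and 48.8 under 0D Ver, and floral meristem markers (5 genes, none tested) to 22.9 and 13.7 under 35D Ver, against 19.6 and 22.0 under 0D Ver. The shoot label thus met abundant mesophyll transcripts, few root transcripts and few floral meristem transcripts. *LHCB1.1* and *COBL9*, which were also on these lists, had no match. The senescence markers were higher under 35D Ver, where *BrTEM1* was lower, and within 35D Ver they were higher in replicate 2, as were both *BrTEM1* copies and *BrTEM2*. Their part in the results was not tested. Without that replicate the *BrTEM1* copies stood at -1.34 (Bra011002) and -1.02 (Bra024735) on the log2 scale. The remaining 35D Ver library still held 175 normalized counts of *SAG12*, so leaving out replicate 2 does not remove the difference in this marker.

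The gene whose pattern over the 4 libraries was closest to Bra011002 was Bra040582, matched to AT5G23960, followed by Bra034012 (AT1G67230) and Bra011971 (AT2G28190). Likeness was the root mean square difference of log2 values centred on their mean, and it was 0.0608, 0.0689 and 0.0772 for these genes among 4612 candidates of like level. They had log2 fold changes of -1.12, -1.01 and -1.20. The second *BrTEM1* copy lay at 0.135, with 9 candidates nearer. With 4 libraries this order only describes these libraries.

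Of the genes that TEM proteins repress in Arabidopsis, *GA3OX2* Bra008480 had deposited counts of 14 and 14 under 35D Ver and 3 and 3 under 0D Ver (log2 fold change 1.69, limma adjusted p = 0.00649). It passed the filter on low counts only through the 35D Ver libraries, in which it was high, and so its test is not independent of the filter. Without any filter the log2 fold change was 1.70 (limma adjusted p = 0.00257). Its summed counts, corrected for library size, were 3.92 times higher under 35D Ver, with a 95% counting interval of 1.59 to 11.6. With either 35D Ver library left out it did not pass the filter and so was not tested. *FT* Bra022475 had deposited counts of 20 and 8 under 35D Ver, against 3 and 1 under 0D Ver, and did not pass the filter on low counts. Its ratio of 35D Ver over 0D Ver was 5.88, with a 95% counting interval of 2.06 to 23.1, and without the filter its limma adjusted p was 0.00641. The 2 copies of *GA3OX1* had at most 7 counts in any library and did not pass the filter. Without the filter neither was called, Bra026757 at a log2 fold change of 0.72 (limma adjusted p = 0.154) and Bra026122 at 1.05 (limma adjusted p = 0.108). The 95% counting intervals of their ratios of 35D Ver over 0D Ver were 0.447 to 11.7 and 0.708 to 6.22, and both include 1. The lowest deposited value was 1, so these small counts may each hold an added 1. No link between these genes and *BrTEM1* was tested.

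Other regulators of *FT* that act beside the TEM proteins were measured as 8 genes, of which 4 rose and 4 fell. Over all tested genes, 20.1% rose and 20.5% fell. *GI* Bra024536, a clock gene that promotes *CO*, rose by 1.03 on the log2 scale (limma adjusted p = 0.000413), and *CO* Bra008669, the direct activator of *FT*, rose by 1.30 (limma adjusted p = 0.00532). The paper, which followed *BrGI* by qPCR and RNA-seq in this and another inbred line, described this gene as unaffected by vernalization. The present values cover only 1 of those lines and no qPCR, so the comparison is not like for like. Of *SVP*, which represses *FT*, both copies rose, Bra030228 by 0.45 (limma adjusted p = 0.00770) and Bra038511 by 0.30 (limma adjusted p = 0.0415). Bra038511 lost its call whichever library was left out (limma adjusted p 0.0910 to 0.146) and with scaling to total counts (0.0554), which left 3 genes risen. The 4 copies of *FLC*, the floral repressor that cold silences, fell further, with log2 fold changes of -4.20 to -3.84. Among 6 AP2-domain repressors of the *TOE* and *SMZ* type, which lack a B3 domain, 2 rose, 1 fell and 3 were not called. Only 1 rose without 35D Ver replicate 1 or either 0D Ver library, and none fell without 35D Ver replicate 1 or 0D Ver replicate 2. *TOE1* Bra000487 rose by 0.60 (limma adjusted p = 0.00327), *TOE2* Bra002510 rose by 0.46 (limma adjusted p = 0.0251) and *SMZ* Bra007123 had a log2 fold change of -0.92 (limma adjusted p = 0.0235). *SNZ* and 2 further RAV-type loci with both domains (AT1G50680 and AT1G51120) had no matched *B. rapa* gene.

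The NGATHA genes carry a B3 domain related to that of the RAV proteins but no AP2 domain. Of 17 matched genes 16 were tested, and 5 rose, 2 fell and 9 were not called, with a median log2 fold change of 0.05. Over all tested genes, 40.6% were called, 20.1% higher and 20.5% lower, so the number called in this group is near the background. The 5 that rose were NGATHA-like genes, namely the 3 *NGAL2* copies, Bra041023 with the highest log2 fold change among them (1.59), and the 2 *NGAL1* copies. The *NGAL1* copies Bra017262 (39 and 47 counts under 35D Ver, against 5 and 6 under 0D Ver) and Bra005301 (29 and 34, against 5 and 4) passed the filter only through the 35D Ver libraries. With at least 10 counts required in every library they were not tested and 3 genes rose. *NGA3* Bra030497 (-0.62) and *NGA4* Bra008552 (-0.88) fell. Likewise 3 rose when either 35D Ver library was left out, and 0 or 1 fell when any of the 4 libraries was left out. Of the abscisic acid genes that RAV1 represses in Arabidopsis, *ABI4* Bra000178 rose by 1.11 (limma adjusted p = 0.00715), the 2 tested copies of *ABI5* were not called and *ABI3* was too low to test. *ABI4* and *BrRAV1* Bra019821 were both higher under 35D Ver. Deposited counts of *ABI4* were 65 and 52 under 35D Ver, against 22 and 22 under 0D Ver. Normalized counts of *ABI4* were 59.5 and 47.4 under 35D Ver, against 21.6 and 26.9 under 0D Ver. Those of Bra019821 were 1174 and 1325, against 932 and 782. No link between these genes was tested.

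**Figure D4:**
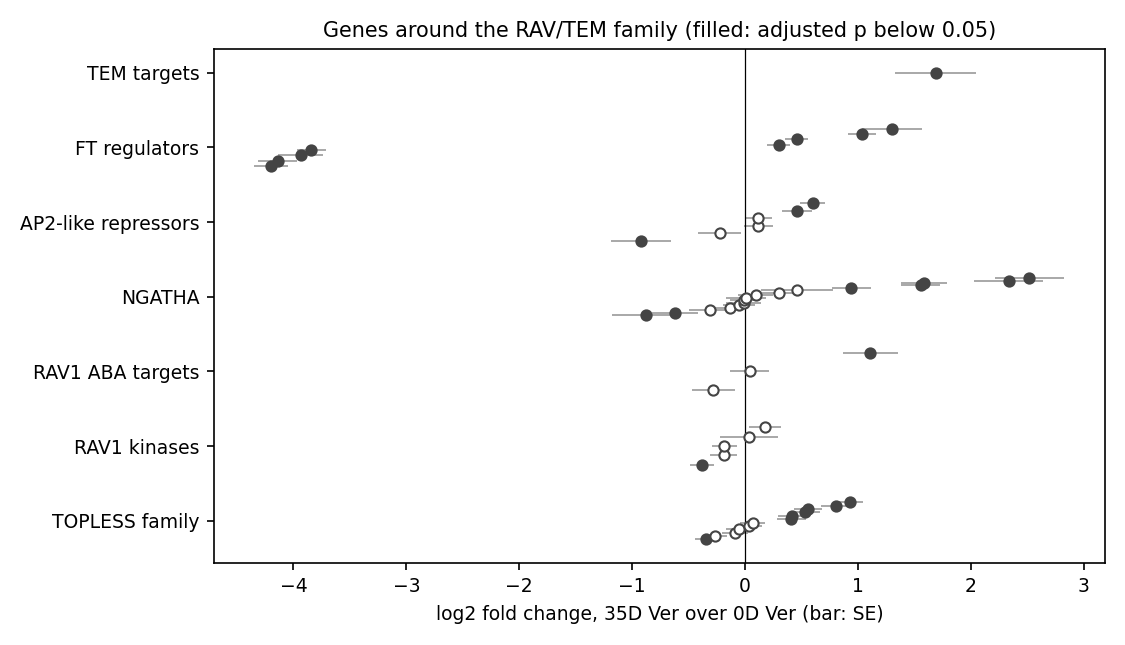
Log2 fold change of 35D Ver over 0D Ver (horizontal axis, bars for the SE) of every tested gene in 7 groups around the RAV and TEMPRANILLO genes, filled where the adjusted p was below 0.05. The 4 *FLC* copies lie near -4 among the regulators of *FT*, and the NGATHA-like genes called higher lie between 0.94 and 2.52, the 2 highest being the *NGAL1* copies that passed the filter only through 35D Ver.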

How the data were processed

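SolexaQA trimming and Bowtie2 mapping to the *B. rapa* genes of the BRAD database were done by the authors. The submitters' processing notes also name edgeR. The deposited values are read counts per gene, not normalized, written with commas between digit groups, with 1 as the lowest value in each library. The commas were removed. Because of this form and the probable added 1, they were treated as a unit of their own and tested on a log scale, with limma-voom as the alternative that models counts. Coordinates, promoters and proteins were not used, since the annotation used here was of a different assembly.

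Trimmed mean of M-values scaling was applied (trims of 0.3 and 0.05). Size factors were 1.09 and 1.10 (35D Ver) and 1.02 and 0.819 (0D Ver). Genes with at least 10 scaled counts in at least 2 libraries and 15 in total were kept, 29691 of 36698. limma 3.58.1 in R 4.3.3 (mean-variance trend, robust empirical Bayes, with condition alone in the model) was applied to log2(normalized count + 1). The steps were tested on simulated data. Plots used matplotlib 3.10.9.

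The replicates were not 1 library deposited more than once, since their counts differed beyond sampling noise (chi-square per degree of freedom 10.2 between the 35D Ver and 9.30 between the 0D Ver libraries). An Arabidopsis match was given for 35161 genes. The members and gene lists were chosen with earlier results of these data known. Named were all members and the 3 genes closest to Bra011002. Of a listed locus the tested copy with the largest change could be named, and those named were mostly the ones called. Other copies of a listed locus (*SVP*, *FLC*, *NGAL1*) and the untested *FT* gene were named after their values were seen. Alternatives were other scaling, filters and pseudocount (0.1), subtraction of 1 from every value, limma-voom, the replicate number as a block, other DEG thresholds and leaving out each library. The crossed block and the copy-ratio test were added after the data had been seen. The ratio of *BrRAV1* to *BrTEM1* counts was not among the planned results either.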

Additional observations from a re-analysis of the deposited data

How the results depend on the processing

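With 1 library left out, the lone library of a condition is assumed to vary like the others. Both *BrTEM1* copies were called lower under all 13 alternatives, at -1.34 to -0.72 (Bra011002) and -1.02 to -0.56 (Bra024735). Leaving out single libraries gave log2 fold changes of 0.42 to 0.66 for Bra019821, 0.20 to 0.46 for Bra026917, 0.043 to 0.74 for Bra038346 and -0.16 to 0.13 for Bra026509, with 0 to 3 members risen, 0 to 2 members that were DEGs and 3871 to 4880 genes fallen. Without a filter Bra026509 stood at 0.00922, in the other direction. DEGs numbered 2868 with a mean of at least 50 and 4771 with no threshold on the fold, against 920. The other scalings moved the median of all genes by 0.0091 and -0.0075.

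The replicate numbers 1 and 2 are shared by the conditions, but with 2 pairs (correlation of same-numbered deviations -0.17) they are only numbers. The replicate block gave 10334 calls instead of 12042, with the same number of members risen (1) and fallen (2), and the *BrRAV1* copy ratio then lost its call (0.21, limma adjusted p = 0.0754), as did *SVP* Bra038511 (0.121) and *SNRK2.2* Bra012897 (0.0588). The crossed pairing, chosen after seeing the data, gave 14317 calls with 2 members risen, Bra026917 (0.33) being the additional one. In the gene groups around the members, 8 counts of risen or fallen genes moved by more than 1.5 times under 1 or more alternatives (28 cases in all). The filter decided the count for the TEM targets (0 to 2 risen). At about 100 counts per library, as for *BrTEM2* and *BrEDF3*, counting error alone spans up to 20.2% on either side.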

Other observations

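TOPLESS-type corepressors, which RAV-type repressors recruit in Arabidopsis, were measured as 13 genes, of which 12 were tested. Of these, 6 rose, 1 fell and 5 were not called (median log2 fold change 0.24). For comparison, 20.1% of all tested genes rose and 20.5% fell. The share that rose was larger among genes with higher counts, at 28.3% in the class of mean count that held *TPL* Bra026751. *TPR4* Bra006006 had 655 and 671 normalized counts under 35D Ver, against 364 and 331 under 0D Ver, and rose by 0.93 on the log2 scale (limma adjusted p = 0.000423). *TPL* Bra026751 rose by 0.41 (limma adjusted p = 0.0280) and *TPR1* Bra003569 by 0.53 (limma adjusted p = 0.0148), while *TPR3* Bra020567 had a log2 fold change of -0.34 (limma adjusted p = 0.0276). The number that rose was 2 without 0D Ver replicate 2 and 3 without 35D Ver replicate 2, and none fell when any of the 4 libraries was left out.

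Of 5 genes for the SnRK2 kinases that phosphorylate RAV1 in Arabidopsis, *SNRK2.2* Bra012897 fell, with 1203 and 1288 normalized counts under 35D Ver, against 1700 and 1549 under 0D Ver (log2 fold change -0.38, limma adjusted p = 0.0210), and 4 were not called. A fall was called in 20.5% of all tested genes. The call on *SNRK2.2* was lost without 35D Ver replicate 1, without 0D Ver replicate 1 and under the replicate block.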
